A study of Homo sapiens with 179 samples.

Results

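Read-through gene models were followed in RNA-seq data from H1, a widely used line of human embryonic stem cells, kept in E8 medium on Matrigel. A read-through model was taken as a gene symbol with exactly 1 hyphen whose left and right parts were each also listed as a gene in the same table. By that rule 61 of the 19084 listed genes were read-through models, out of 195 symbols with a hyphen. No partner gene belonged to more than 1 model, so the models formed 61 separate trios of a model, its left gene and its right gene. The rule used names only, and no measured value.

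The study set LM-Seq, a low-cost strand-specific protocol that primes oligo-dT selected RNA with random hexamers, beside the commercial TruSeq RNA kit. Each LM-Seq lane held fewer libraries than the one before, and so gave deeper ones: 95 libraries shared Lane 1, 48 shared Lane 2, 24 shared Lane 3 and 6 shared Lane 4. TruSeq libraries were labelled H1p43 (n = 3) and H1p16 (n = 3), with 12 samples per lane. All groups shared the cell line and the medium, with no treatment named. The sources used here do not explain the letter p or say which cells went into LM-Seq. LM-Seq and TruSeq therefore differ in protocol and possibly in cells, which cannot be told apart. Separate cultures are not mentioned for the replicates, and a p-value here covers only how far libraries of a group lie apart, a spread that may be purely technical.

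A read-through transcript forms when RNA polymerase passes the end of 1 gene and goes on into the next gene on the same strand, and splicing then joins exons of both. Cleavage and polyadenylation at the end of the upstream gene normally prevents this. The joined RNA reuses exons of its 2 partners, so in short reads most of its sequence is usually also sequence of 1 of them. What sets it apart is the junction that links the 2 genes, and in some models further sequence found in neither partner. The expected counts analysed here come from a model that divides such shared reads among all transcripts that could have given them, so a read given to the read-through model is not given to a partner.

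A linking junction marks a model off from both partners, though some models also hold other sequence found in neither. GENCODE release 29 transcripts, matched through the RefSeq identifiers in the tables, gave a linking junction for 53 models, and all 53 transcripts were annotated as protein coding. In each line the last 15 bases of the left gene's exon are in lower case and the first 15 bases of the right gene's exon are in capitals, read along the transcript. The first 3 models were lower in LM-Seq, the next 4 were higher, and the last 2 differed between H1p43 and H1p16.
BCL2L2-PABPN1: agcagtgggggctggGAGCTGGAAGCTATC
GPR75-ASB3: gcggccacccggcagACTGGTCAAACAAAT
MSANTD3-TMEFF1: acgcctcagcccaagAATTAAATGTGAGGG
NME1-NME2: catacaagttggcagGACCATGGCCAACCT
RBM14-RBM4: gtgacgtggtgaaagGCAAACGAATGCACG
PHOSPHO2-KLHL23: gaaatactaagttggCCATGGCTCTAAAAG
RPL36A-HNRNPH2: gataagaagagaaagCTACACCAAAATTGC
PPAN-P2RY11: gggaaatggatcgagGTGCCAAGTCCTGCC
TRIM6-TRIM34: tccaaagctactgggCCATCCAGGGGTCTT

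In GRCh38 the BCL2L2-PABPN1 junction leaves exon 3 at base 23308199 of chromosome 14 and enters exon 4 at base 23322181, on the plus strand. The NME1-NME2 junction leaves exon 4 at base 51161272 of chromosome 17 and enters exon 5 at base 51166827, also on the plus strand. The GPR75-ASB3 junction leaves exon 1 at base 53859828 of chromosome 2 and enters exon 2 at base 53765585, on the minus strand. The introns that these junctions remove ranged from 679 to 501759 bases over the 53 models, with a median of 21693 bases. GPR75-ASB3 keeps little of its left gene: 5.47% of its 50-base windows occur in GPR75, 84.2% occur in ASB3 and 10.4% in neither. BCL2L2-PABPN1 is a more even join, with 45.3% of its windows in BCL2L2 and 50.8% in PABPN1.

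Over the 59 models matched to GENCODE, a median of 4.58% of the 50-base windows of a model lay in neither partner, with a range of 0 to 62.1%. The value was under 10% in 42 models and over 50% in 2. It was 0 in KLRC4-KLRK1 and ARMCX5-GPRASP2, whose matched transcripts had 100% of their windows in the right gene. No linking junction was found for these models, so that 0 describes sequence of the right gene alone. The window of 50 bases was chosen for this description, since the sources used here give no read length. The matched transcripts can differ in their ends from those the authors counted: the ratios of partner to model length lay within 2-fold of those implied by the deposited counts and TPM in 19 of 31 trios. In the RefSeq promoter table (GRCh38.p14), the window around the start of the model was identical to that of its left gene in 27 of 41 models, and to that of its right gene in 0 of 39.

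A Lane 1 library held 1040671 to 1539277 expected counts. The range was 2005736 to 2739084 for Lane 2 libraries and 4028607 to 4918577 for Lane 3 libraries, and Lane 4 libraries held 15780078 to 16583048. H1p43 libraries held 29018106 to 35852646 and H1p16 libraries 23680503 to 30628645. The 6 pluripotency markers summed to 5918 to 8570 TPM in every library, and 3 neural markers to at most 2.35 TPM. Among 4 fibroblast markers, 2 had means under 1 TPM in every group, while COL1A1 averaged 79.5 TPM in Lane 4 and 44.9 TPM in H1p16.

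The counts themselves show how much of a trio rests on division of shared reads. An expected count that is a whole number needs no division. Over all libraries, 4.85% of the read-through models' counts above 0 were whole within 0.011, against 37.7% for partner genes and 76.8% for all other genes. Summing the 3 members of a trio raised the whole values to 66.7% (within 0.031). In Lane 4 the percentages were 2.65 for models, 20.7 for partners, 57.4 for other genes and 39.3 for trio sums, and in TruSeq they were 1.32, 8.29, 44.1 and 26.3. Trios differed: the sum was whole in 89.4% of libraries for GPR75-ASB3 and in 73.2% for NME1-NME2, but in 6.70% for RPL36A-HNRNPH2. It was also seldom whole in other trios, among them RBM14-RBM4 (4.47%), PHOSPHO2-KLHL23 (10.6%) and FAM18B2-CDRT4 (10.1%). Reads of such trios were thus also divided with genes outside the trio, which limits their shares and sums.

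**Figure D1:**
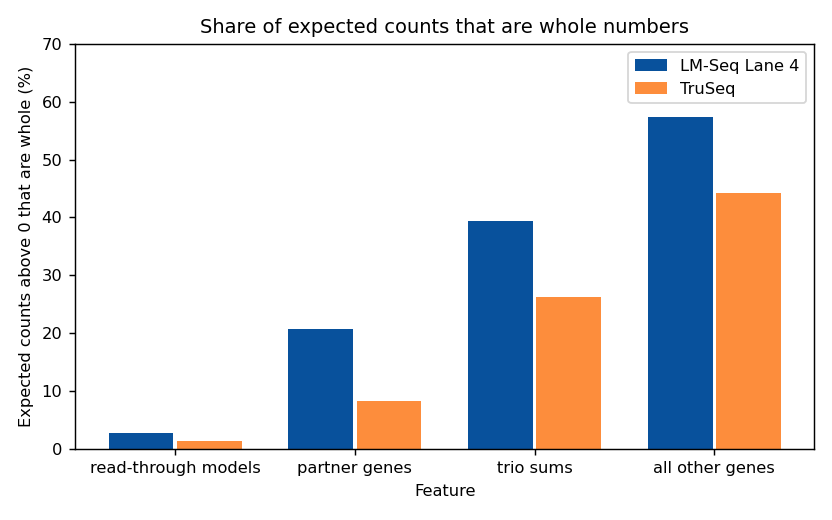
Bars give the percentage of expected counts above 0 that are whole numbers, for read-through models, their partner genes, the sums of each trio and all other genes, in LM-Seq Lane 4 (n = 6, left bars) and TruSeq (n = 6, right bars). Models sit at 2.65% and 1.32%, below partner genes in both protocols, and trio sums lie between partner genes and other genes. Whole means within 0.011 for models and genes but within 0.031 for trio sums, and the wider tolerance by itself raises the bars of the sums.

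Read-through models took a small part of all reads. Their counts made up 0.0801% of a library in Lane 1, 0.0781% in Lane 2, 0.0784% in Lane 3 and 0.0791% in Lane 4, with 0.0821% in H1p43 and 0.0780% in H1p16. Within the trios, the pooled read-through share (all models' counts over all counts of the 61 trios) was 14.3% ± 1.13 in Lane 1, 14.003% ± 1.11 in Lane 2, 14.1% ± 0.92 in Lane 3 and 14.2% ± 0.59 in Lane 4 (SD over libraries). It was 12.7% ± 0.26 in H1p43 and 12.2% ± 0.28 in H1p16. The 6 Lane 4 libraries ranged from 13.5% to 15.1% and the 6 TruSeq libraries from 11.95% to 13.02%, without overlap. Leaving out RPL36A-HNRNPH2, the trio with the most counts, brought the difference between Lane 4 and TruSeq from 1.69 to 0.17 percentage points. On the TPM scale, which divides by transcript length, the pooled share was 10.8% ± 0.42 in Lane 4 and 6.00% ± 0.15 in TruSeq.

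Single trios spread over the whole range. Of the 51 trios with a mean of at least 100 counts in Lane 4, the model held over 50% of the counts in 3, 10 to 50% in 20, 1 to 10% in 15 and under 1% in 13. FAM18B2-CDRT4 had the highest shares among the trios compared, 73.5% ± 4.91 in Lane 4 and 81.6% ± 5.56 in TruSeq (n = 6 each). At the other end, TNFAIP8L2-SCNM1 was at 0 in all 12 of these libraries. In some trios a partner was listed at 0 while the model was not. SOHLH2, a germ cell transcription factor, was at 0 in all 12 libraries, while CCDC169-SOHLH2 had 3.37 to 5.25 TPM in Lane 4 and 4.21 to 7.32 TPM in TruSeq. In Lane 4 the right gene was at 0 in every library in 6 such trios and the left gene in 2; in TruSeq the right gene was at 0 in 3 and the left gene in 1.

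The 8 models with the highest mean TPM in TruSeq were BCL2L2-PABPN1 (143.3 TPM), NME1-NME2 (116.7), RPL36A-HNRNPH2 (113.7), NDUFC2-KCTD14 (53.5), MSANTD3-TMEFF1 (29.96), ISY1-RAB43 (24.2), CHURC1-FNTB (20.6) and RBM14-RBM4 (16.8). Among their left genes, RPL36A encodes a protein of the large ribosomal subunit, NDUFC2 a subunit of mitochondrial complex I and ISY1 a splicing factor.

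LM-Seq and TruSeq divided several trios in opposite ways. BCL2L2-PABPN1, GPR75-ASB3 and MSANTD3-TMEFF1 were much lower in Lane 4 than in TruSeq, while NME1-NME2, RBM14-RBM4, PHOSPHO2-KLHL23 and RPL36A-HNRNPH2 were higher. In edgeR's quasi-likelihood test, 26 of the 42 models tested passed an adjusted p of 0.05, 13 higher and 13 lower in Lane 4. Across all 13827 genes tested, 71.3% passed (34.3% higher and 36.9% lower), so 26 of 42 is near the background of this comparison. The filter on low counts removed the other 19 models. The median absolute log2 fold change was 0.87 over the 42 models, against 0.59 over all genes tested. It was 0.75 over their left genes and 0.86 over their right genes, so a larger change was not particular to the models.

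BCL2L2-PABPN1 joins the gene of BCL-w, an inhibitor of apoptosis, to that of the nuclear poly(A)-binding protein. Its model had 10.5, 20.9 and 42.3 TPM in Lane 4 (lowest, median and highest of 6), against 138.55, 149.12 and 149.55 TPM in H1p43 and 133.53, 141.65 and 147.31 TPM in H1p16. Every Lane 4 library lay below every TruSeq library. The log2 fold change was -2.60 ± 0.26 (SE; adjusted p = 2e-07). PABPN1 itself went the other way, with 158.9 ± 17.6 TPM in Lane 4 and 89.6 ± 8.73 TPM in TruSeq (SD, n = 6 each; log2 fold change 0.86 ± 0.09, adjusted p = 3.9e-07). BCL2L2 was lower in Lane 4, at -1.44 ± 0.24 (adjusted p = 4.9e-05). The 3 counts summed changed little, by -0.14 ± 0.05 (adjusted p = 0.024). As a share of the trio, the model held 3.80%, 7.58% and 16.5% in Lane 4 (lowest, median, highest), against 46.2%, 49.8% and 48.6% in H1p43 and 44.1%, 48.6% and 51.3% in H1p16.

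GPR75-ASB3 joins the gene of a G protein-coupled receptor to that of an ankyrin-repeat protein of the SOCS box family. The model had 0 counts in all 6 Lane 4 libraries, against 12.1, 12.8 and 12.7 TPM in H1p43 and 10.9, 12.9 and 10.9 TPM in H1p16. Set against a floor of 3 counts over the Lane 4 group, it was at least 369.6-fold lower (adjusted p = 2.8e-10). The trio held 435 to 576 counts in each Lane 4 library, where 0 counts allow a share of up to 0.690% in the shallowest. This limit and the fold bound cover counting error only, not the division of shared reads. Among the same 6 library numbers the model also had 0 counts in Lanes 1 and 3, but in Lane 2 it had 6.56 counts (9.65% of the trio) in 1 of them and 1.59 counts (2.30%) in another. ASB3 rose, with 30.3 ± 2.72 TPM in Lane 4 and 11.4 ± 1.79 TPM in TruSeq (SD, n = 6 each; log2 fold change 1.47 ± 0.10, adjusted p = 1.2e-09). The summed trio was 0.58 ± 0.07 higher. In TruSeq the model held 45.03% ± 4.20 of the trio.

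MSANTD3-TMEFF1 joins the gene of a Myb/SANT-domain protein to that of a transmembrane protein with follistatin-like domains. Its share was 1.47%, 3.08% and 6.78% in Lane 4 (lowest, median, highest), against 24.1%, 21.4% and 21.3% in H1p43 and 24.2%, 30.3% and 33.5% in H1p16. The model fell by a log2 fold change of -1.83 ± 0.24 (adjusted p = 4e-06), while MSANTD3 rose by 0.78 ± 0.09, TMEFF1 by 1.59 ± 0.11 and the sum by 1.04 ± 0.06. ANKHD1-EIF4EBP3 (-1.35 ± 0.32) and CHURC1-FNTB (-1.17 ± 0.15) also fell without overlap. For ANKHD1-EIF4EBP3 the trio sum was 0.02 ± 0.05, with adjusted p = 0.79. EIF4EBP3, a repressor of cap-dependent translation, fell by -4.33 ± 0.53 there, while ANKHD1 rose by 0.41 ± 0.07.

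Further models were near 0 in Lane 4 and low in TruSeq. TMEM189-UBE2V1, which ends in a ubiquitin-conjugating enzyme variant, had 0.22 ± 0.53 TPM in Lane 4 and 4.28 ± 1.55 TPM in TruSeq. RPS10-NUDT3, which starts in a small-subunit ribosomal protein gene, had 0.39 ± 0.96 TPM in Lane 4 and 6.86 ± 4.14 TPM in TruSeq. TRIM39-RPP21, which ends in a ribonuclease P subunit, had 1.29 ± 1.46 TPM in Lane 4 and 5.83 ± 0.79 TPM in TruSeq (SD, n = 6 each). Their log2 fold changes were -4.27 ± 0.77, -4.06 ± 0.84 and -2.13 ± 0.65. Over the same 6 library numbers in Lane 1, TMEM189-UBE2V1 had 2.33 ± 3.61 TPM (SD), while RPS10-NUDT3 was at 0. DESeq2 did not call TRIM39-RPP21 (adjusted p = 0.073), and its log2 fold change was -0.65 with Lane 3, -0.996 with Lane 2 and -0.05 with Lane 1 in place of Lane 4, none of them called.

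NME1-NME2 joins 2 neighbouring genes of nucleoside diphosphate kinases, enzymes that keep the cell's nucleoside triphosphates in balance. It had 316.6, 351 and 395 TPM in Lane 4 (lowest, median, highest), against 127.29, 113.44 and 121.75 TPM in H1p43 and 124.22, 103.26 and 110.09 TPM in H1p16. The groups did not overlap, and the log2 fold change was 1.63 ± 0.07 (adjusted p = 4.4e-12). Both partners fell, NME1 by -1.70 ± 0.12 and NME2 by -1.38 ± 0.05, and so did the sum (-0.73 ± 0.05). The model's share was 42.3%, 44.7% and 51.4% in Lane 4, against 9.98%, 8.90% and 9.61% in H1p43 and 9.44%, 7.85% and 8.43% in H1p16.

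RBM14-RBM4 joins 2 genes of RNA-binding proteins. It had 100.38, 117.44 and 133.67 TPM in Lane 4 (lowest, median, highest), against 17.3, 13.1 and 13.3 TPM in H1p43 and 22.7, 18.9 and 15.3 TPM in H1p16, a log2 fold change of 2.51 ± 0.23 (adjusted p = 6e-08). RBM14 fell by -0.80 ± 0.13, RBM4 rose by 0.37 ± 0.11, and the sum was 0.15 ± 0.12 (adjusted p = 0.25). PHOSPHO2-KLHL23 had 15.2, 26.1 and 30.3 TPM in Lane 4, against 6.10, 5.72 and 4.76 TPM in H1p43 and 3.23, 2.87 and 2.39 TPM in H1p16 (2.56 ± 0.23, adjusted p = 5e-08). The kelch-family gene KLHL23 rose too, by 1.00 ± 0.08, while PHOSPHO2, a phosphatase gene, had -0.42 ± 0.25 (adjusted p = 0.15).

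In RPL36A-HNRNPH2 the model, both partners and the sum all rose. The model rose by 1.09 ± 0.07 (adjusted p = 1.1e-09), RPL36A by 0.51 ± 0.05, HNRNPH2, an RNA-binding protein of the heterogeneous nuclear ribonucleoproteins, by 2.21 ± 0.12 and the sum by 0.76 ± 0.05. Its share was 26.96% ± 2.02 in Lane 4 and 21.3% ± 0.74 in TruSeq. NDUFC2-KCTD14 rose by 0.38 ± 0.08 (adjusted p = 0.00037), with shares of 62.6% ± 7.06 in Lane 4 and 58.02% ± 3.29 in TruSeq.

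Shares were compared for the 51 trios with a mean of at least 100 counts in the group with fewer. In 15 of them all 6 Lane 4 libraries lay on 1 side of all 6 TruSeq libraries, 4 with higher and 11 with lower shares in Lane 4. In CPM, a different measure from the share, Lane 4 and TruSeq did not overlap in 13 of the 42 models tested, against 54.3% of all genes tested. The 2-sided exact permutation p was 0.00216, the smallest that 6 against 6 libraries allow, for each of BCL2L2-PABPN1 (-39.2 percentage points), GPR75-ASB3 (-45.03), MSANTD3-TMEFF1 (-22.2), ANKHD1-EIF4EBP3 (-19.6), NME1-NME2 (37.1), RBM14-RBM4 (12.3), PHOSPHO2-KLHL23 (11.4) and RPL36A-HNRNPH2 (5.62), unadjusted and with 51 trios compared. The other non-overlapping trios, at the same p, were CCDC169-SOHLH2 (-24.5), BIVM-ERCC5 (-17.9), ISY1-RAB43 (-17.4), APITD1-CORT (-11.9), TRIM39-RPP21 (-5.79), TMED7-TICAM2 (-2.14) and TMEM189-UBE2V1 (-1.77). Libraries without overlap always give this p, so for these 15 trios it restates the lack of overlap. Of the 51 trios, 26 had an exact permutation p below 0.05, unadjusted. PALM2-AKAP2, by contrast, had 20.3% ± 5.95 in Lane 4 and 19.8% ± 3.07 in TruSeq (exact permutation p = 0.846), and the difference was at most 2 percentage points in 17 trios. The median absolute difference was 4.69 percentage points.

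**Figure D2:**
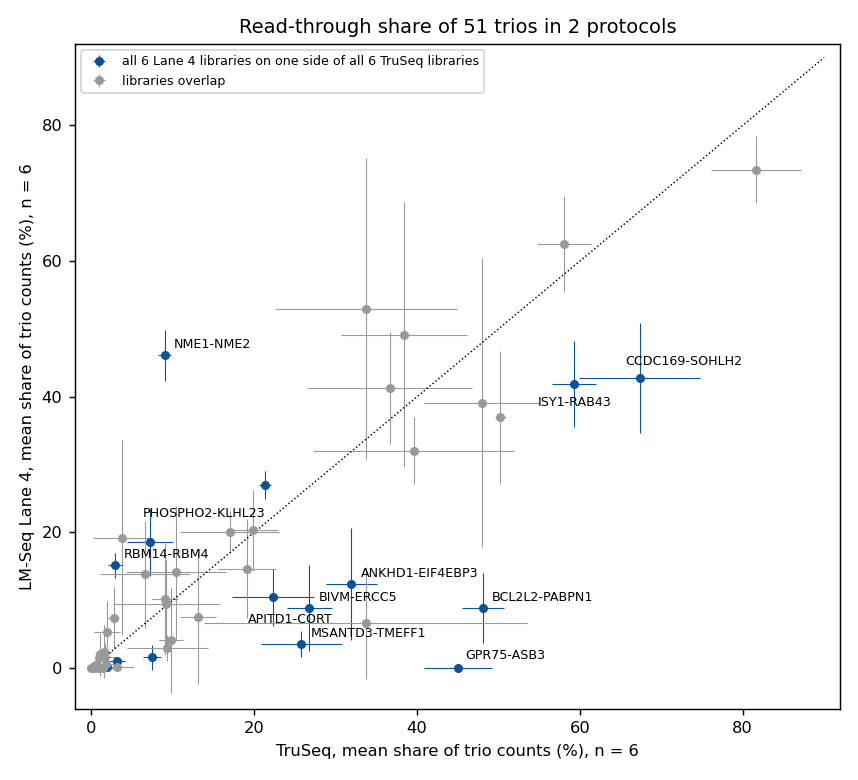
Each point is 1 of 51 trios, with the mean percentage of trio counts given to the read-through model in LM-Seq Lane 4 (vertical, n = 6) and in TruSeq (horizontal, n = 6); error bars are SD over libraries, the dotted line marks equal shares and blue marks the 15 trios whose libraries did not overlap. NME1-NME2 stands at 46.1% in Lane 4 and 9.03% in TruSeq, while BCL2L2-PABPN1 and GPR75-ASB3 stand far below the line.

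The model and its trio sum did not have to move together. Of the 26 called models, the sum was called in the same direction in 16 and in the other direction in 4, and it was not called in 6. In 13 of the 26, at least 1 partner was called in the direction opposite to the model. With 34.3% of all genes called higher and 36.9% lower, unrelated genes are often called in opposite directions too. For the 42 models with both values, the median absolute log2 fold change was 0.87 for the model and 0.58 for the sum. Trio sums passed the test in 46 of 58, against 71.3% of all rows in that table, and in H1p43 against H1p16 in 48 of 59, against 72.2%. A single library's share had an exact Clopper-Pearson 95% interval with a median half-width of 1.06 percentage points in Lane 4 and 1.02 in TruSeq over the 26 named trios. The widest half-widths were 10.1 in Lane 4 and 8.93 in TruSeq, and these intervals cover counting error only.

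The second comparison sets H1p43 against H1p16 within TruSeq. STON1-GTF2A1L, ZNF664-FAM101A, C15orf38-AP3S2 and ARPC4-TTLL3 were higher in H1p43, and PPAN-P2RY11 and DNAJC25-GNG10 were lower. In edgeR, 23 of 49 models tested passed, 14 higher and 9 lower in H1p43, against 71.8% of all 14574 genes tested (36.4% higher, 35.4% lower). The models' share of calls, 46.9%, lay below that of all genes, their left genes (38 of 55) and their right genes (32 of 48). Their changes were not smaller: the median absolute log2 fold change was 0.35 over the 49 models, against 0.28 over all genes tested. Over the left genes it was 0.35, and over the right genes 0.29. Why fewer models passed was not tested. DESeq2 called 14 models, and limma on log2(TPM + 1) called 15.

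For STON1-GTF2A1L, the model, its left gene and the sum rose by like amounts. The model had 2.58, 2.43 and 2.60 TPM in H1p43, against 0.59, 0.38 and 0.36 TPM in H1p16, and no libraries overlapped. The log2 fold change was 2.42 ± 0.17 (adjusted p = 6.5e-10). STON1, which encodes an endocytic adaptor, rose by 2.14 ± 0.07 and the sum by 2.17 ± 0.06. GTF2A1L, a germ cell form of a general transcription factor subunit, was listed at 0 in all 6 libraries. The share was 14.2% ± 0.97 in H1p43 and 12.0% ± 2.78 in H1p16 (SD, n = 3 each).

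PPAN-P2RY11, which joins a ribosome biogenesis gene to that of a purinergic receptor, had 1.86, 0.11 and 0 TPM in H1p43, against 5.83, 6.67 and 4.52 TPM in H1p16. The groups did not overlap, and the 3 H1p43 libraries themselves spread widely. The log2 fold change was -3.21 ± 0.46 (adjusted p = 6.2e-06), and DESeq2 gave an adjusted p of 0.12. PPAN fell by -0.65 ± 0.04, P2RY11 by -0.87 ± 0.12 and the sum by -0.81 ± 0.04. DNAJC25-GNG10 was lower by -3.16 ± 0.66 (adjusted p = 0.00035; 0.14 in DESeq2), with 0.16 ± 0.27 TPM in H1p43 and 1.36 ± 0.75 TPM in H1p16.

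Several models rose while a partner fell. TRIM6-TRIM34, made of 2 tripartite-motif genes, had shares of 15.4%, 12.8% and 13.3% in H1p43, against 5.13%, 3.97% and 5.43% in H1p16. The model rose by 1.23 ± 0.15 (adjusted p = 8.5e-07), while TRIM6 fell by -0.47 ± 0.05 and the sum by -0.31 ± 0.04. ARPC4-TTLL3 rose by 1.61 ± 0.19 (adjusted p = 5.4e-07), while ARPC4, a subunit of the actin-nucleating Arp2/3 complex, fell by -0.36 ± 0.03. PHOSPHO2-KLHL23 rose by 0.86 ± 0.11 and TMED7-TICAM2 by 0.65 ± 0.15, while KLHL23 fell by -0.26 ± 0.03 and TMED7, a cargo receptor of the secretory pathway, by -0.19 ± 0.03. In all, 11 of the 23 called models had a partner called in the other direction, and 7 had a sum called in the other direction. With 36.4% of all genes called higher and 35.4% lower, such opposite calls are also frequent between unrelated genes.

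ZNF664-FAM101A (2.19 ± 0.45, adjusted p = 0.00026) and C15orf38-AP3S2 (1.94 ± 0.39, adjusted p = 0.00027) also rose in edgeR. DESeq2 called neither, with adjusted p of 0.25 and 0.16. FXYD6-FXYD2, a join of regulators of the sodium-potassium pump, had 0.77 ± 0.19 TPM in H1p43 and 0.30 ± 0.28 TPM in H1p16 (1.34 ± 0.53, adjusted p = 0.031), and was not called without H1p16 replicate 2 or 3 or H1p43 replicate 3. Other called models fell by less. RBM14-RBM4 fell by -0.90 ± 0.19, CHURC1-FNTB by -0.35 ± 0.05, RPL36A-HNRNPH2 by -0.28 ± 0.03 and ISY1-RAB43 by -0.16 ± 0.04. On the TPM scale ISY1-RAB43 had 23.8 ± 0.78 TPM in H1p43 and 24.5 ± 1.43 TPM in H1p16, and limma did not call it.

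Of the 56 trios with at least 100 counts in both TruSeq groups, 18 had shares that did not overlap. In H1p43, 13 of these were higher and 5 lower. In CPM, a different measure from the share, 18 of the 49 models tested did not overlap, against 73.7% of all genes tested. The median absolute difference in share was 2.005 percentage points, and 28 trios differed by at most 2. No test was made of these shares, since 3 against 3 libraries cannot give an exact 2-sided p under 0.05. The 3 trios with the widest gaps between Lane 4 and TruSeq had close means in both TruSeq groups, but the next ones did not. BCL2L2-PABPN1 had 48.2% ± 1.82 in H1p43 and 48.0% ± 3.64 in H1p16, GPR75-ASB3 had 44.5% ± 3.04 in H1p43 and 45.6% ± 5.83 in H1p16, and NME1-NME2 had 9.50% ± 0.55 in H1p43 and 8.57% ± 0.80 in H1p16 (SD, n = 3 each). C8orf44-SGK3 had 6.68% ± 8.28 in Lane 4, against 47.2% ± 4.62 in H1p43 and 20.2% ± 20.4 in H1p16. CCDC169-SOHLH2 had 42.8% ± 8.11 in Lane 4, against 73.7% ± 2.23 in H1p43 and 60.9% ± 3.07 in H1p16.

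**Figure D3:**
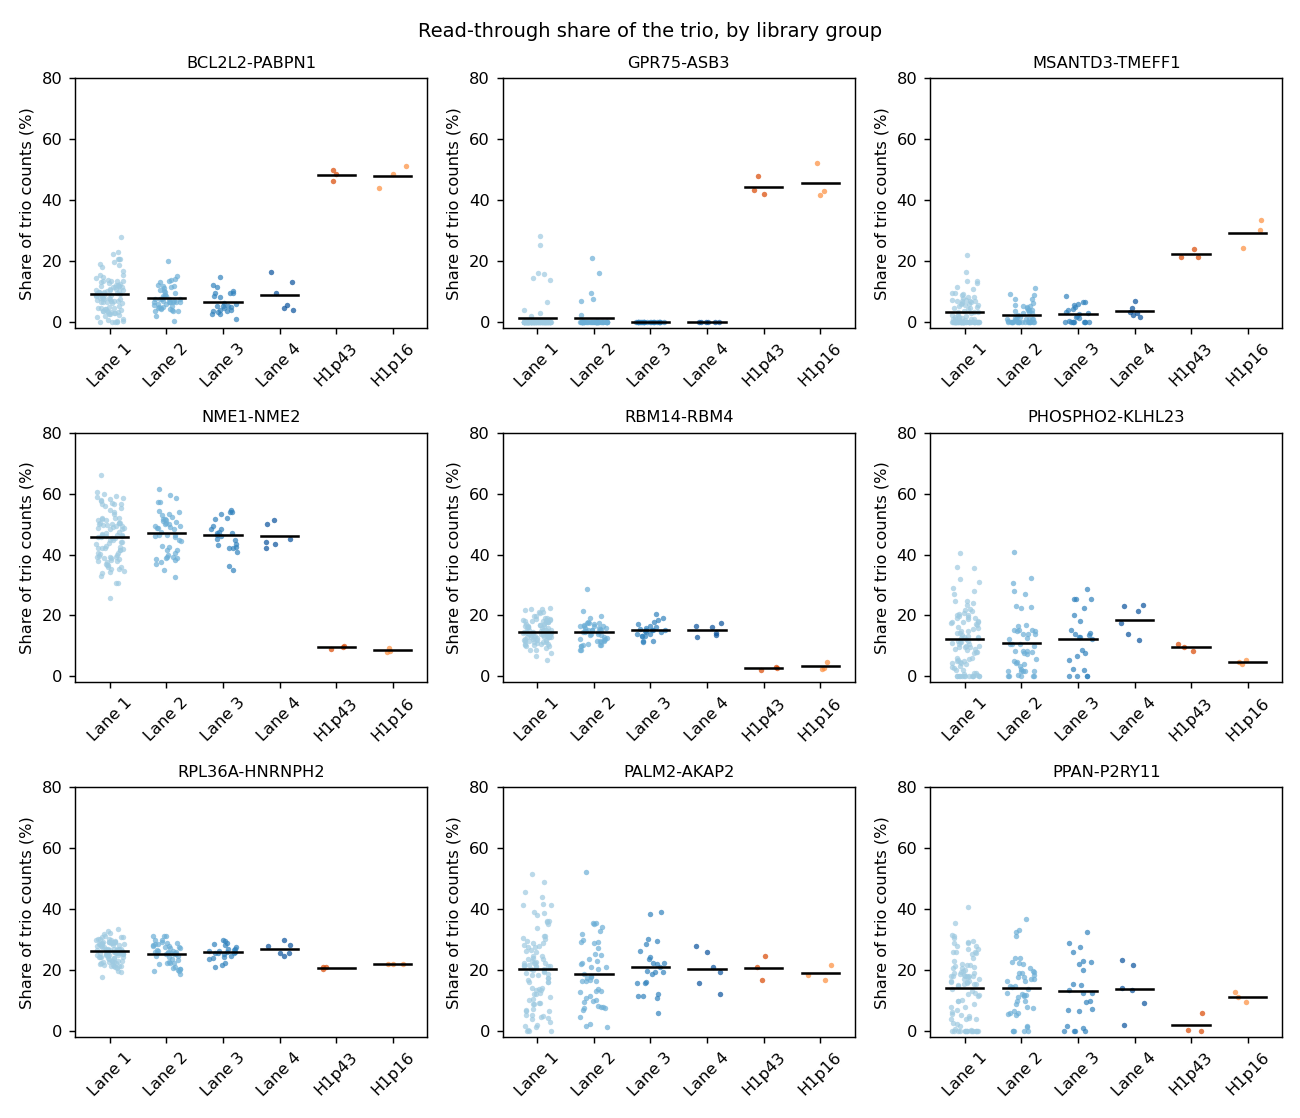
Each panel shows 1 trio; points are libraries, black lines are group means, and the vertical axis is the percentage of trio counts given to the read-through model, for LM-Seq Lanes 1 to 4 (n = 95, 48, 24 and 6), H1p43 (n = 3) and H1p16 (n = 3). For NME1-NME2 every Lane 1 library lies above 25.8% and every TruSeq library at or below 9.98%, while PALM2-AKAP2 averages 20.3% in Lane 4 and 19.8% in TruSeq.

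The LM-Seq lanes ask what depth does to these values. Mean shares differed little between lanes. Over the 19 trios with a mean of at least 100 counts in Lane 1, the median absolute difference from the Lane 1 mean was 0.52 percentage points in Lane 2, 0.54 in Lane 3 and 0.43 in Lane 4. For the same trios it was 4.55 points between Lane 4 and TruSeq, and 1.39 points between H1p43 and H1p16. No trio differed by over 10 points between Lane 4 and Lane 1, whereas 7 did between Lane 4 and TruSeq. Among these means over all libraries of a lane, the largest difference from Lane 1 was in C15orf38-AP3S2, with 7.05 points less in Lane 3. Over the 6 numbers that Lanes 4 and 1 share, PHOSPHO2-KLHL23 differed by more, with 18.6% ± 4.94 in Lane 4 and 10.3% ± 5.50 in Lane 1.

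The spread between libraries, by contrast, was wide. In Lane 1 the coefficient of variation of the trio sum in CPM had a median of 9.22% over 17 trios with model counts, while that of the model had a median of 80.9%, and the model varied more in all 17. In Lane 4 the medians were 62.4% for the model and 8.28% for the sum over 46 trios. In H1p43 they were 13.5% and 2.15%, and in H1p16 22.4% and 2.94%. The SD of the share exceeded the binomial SD for the trio's counts by a median factor of 3.21 in Lane 1, 5.24 in Lane 4, 2.32 in H1p43 and 2.77 in H1p16. Counts that are divided by a model are not independent draws, so the binomial SD serves only as a scale.

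**Figure D4:**
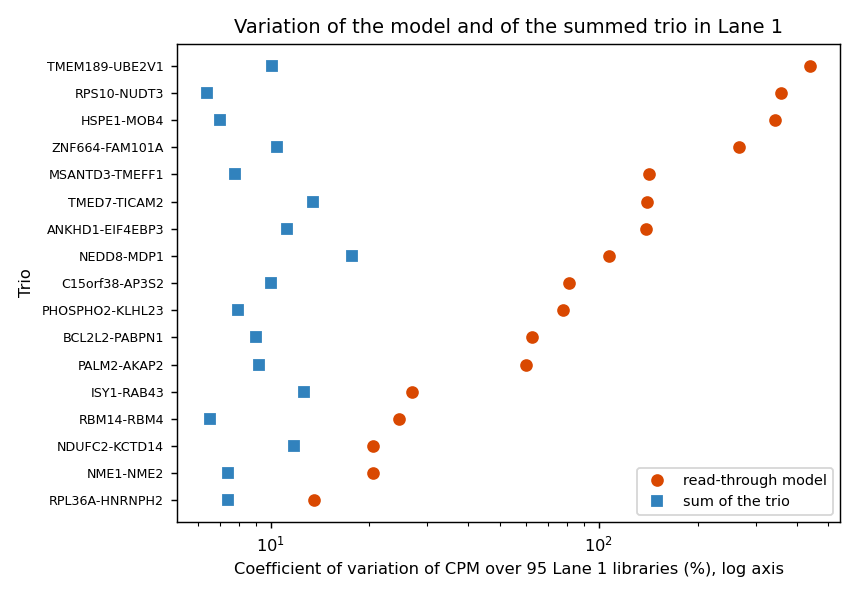
For 17 trios, the coefficient of variation of CPM over the 95 Lane 1 libraries (log axis, %) is shown for the read-through model (circles) and for the summed trio (squares). The sums lie between 6.399% and 17.7%, left of the model in every trio.

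Among the 17 trios with model counts and a mean of at least 100 counts in Lane 1, ANKHD1-EIF4EBP3 had the largest SD of the share. Its share in Lane 1 was 16.5% ± 23.1, from 0 to 82.8%, and the model had no count in 55 of 95 libraries. C15orf38-AP3S2 (15.3% ± 12.3), PALM2-AKAP2 (20.2% ± 12.2), ISY1-RAB43 (44.1% ± 10.9) and NDUFC2-KCTD14 (63.002% ± 10.2) followed. PMF1-BGLAP and NEDD8-MDP1 also switched between 0 and a clear value within a group. PMF1-BGLAP, which joins a kinetochore gene to that of osteocalcin, had 0 TPM in 2 of 6 Lane 4 libraries and 35.4 TPM in another, against 17.8, 16.3 and 17.4 TPM in H1p43 and 13.2, 13.7 and 14.5 TPM in H1p16. NEDD8-MDP1, which starts in the gene of a ubiquitin-like modifier, ranged from 0 to 36.7 TPM in Lane 4, against 8.03 to 13.1 TPM in H1p43 and 11.3 to 16.2 TPM in H1p16.

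The SD in percentage points, by which these trios are ordered, is kept small by a low share. RPL36A-HNRNPH2 had a smaller SD, at 26.1% ± 3.25 in Lane 1, and so did RBM14-RBM4, at 14.6% ± 3.57. BCL2L2-PABPN1 had 9.05% ± 5.91, wide for its mean, and every Lane 1 share lay below its lowest TruSeq share of 44.1%. NME1-NME2 had 45.8% ± 7.998, and its lowest Lane 1 share of 25.8% lay above its highest TruSeq share of 9.98%. GPR75-ASB3 had no count in 85 of 95 libraries of Lane 1 and reached 28.2% in another.

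Lanes were compared over the library numbers they share, and same-numbered libraries deviated together. Between Lane 4 and Lane 1, 1 of 31 models passed in edgeR, against 0.0161% of all 12419 genes (2 genes). It was FAM47E-STBD1, which ends in the gene of a glycogen-binding protein. The model had 0 counts in all 6 Lane 1 libraries and 40.4 to 58.3 counts in Lane 4, at least 7.72-fold higher (adjusted p = 0.013). It had no count in 47 of all 95 Lane 1 libraries, and over all libraries of both lanes the log2 fold change was 0.07 and not called. With the number as a block, 2 models passed, against 0.105% of all genes: FAM47E-STBD1 and PHOSPHO2-KLHL23 (0.85 ± 0.13, adjusted p = 1e-04, higher in 6 of 6 numbers).

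Between Lane 3 and Lane 1, 0 of 27 models passed in edgeR and 0 in DESeq2, against 0.0% of all genes tested, and 4 had an unadjusted p under 0.05. With the number as a block, 1 passed, against 0.405% of all genes: BCL2L2-PABPN1 (-0.55 ± 0.11, adjusted p = 0.0043), with shares of 6.48% ± 3.52 in Lane 3 and 9.56% ± 6.89 in Lane 1. Between Lane 2 and Lane 1, 0 of 22 passed in edgeR and 0 in DESeq2, against 0.0% of all genes tested, and 2 had an unadjusted p under 0.05. No trio sum passed in any lane comparison in edgeR or DESeq2, where 0.00809% of all rows passed for Lane 4 and 0.0% for Lanes 3 and 2; unadjusted p-values under 0.05 numbered 2 for Lane 4, 3 for Lane 3 and 0 for Lane 2.

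Libraries of the same number tended to have similar shares in Lanes 1 and 2, and less regularly so in Lanes 1 and 3. Shares in Lanes 1 and 2 were compared over 48 numbers for 11 trios, and ANKHD1-EIF4EBP3 was kept apart because its shares fell into separate clusters. For the other 10, Pearson's r ranged from 0.26 to 0.54, and its permutation p was below 0.05 in 9, unadjusted. With Lane 3 in place of Lane 2, over 24 numbers, r ranged from 0.13 to 0.67 and p was below 0.05 in 4 of 10. NME1-NME2 had the highest r of 0.54 (permutation p = 6e-05; Spearman's rho 0.52, permutation p = 0.00021; r = 0.51 without the 2 numbers farthest from the Lane 1 median). RPL36A-HNRNPH2 had r = 0.52 (permutation p = 0.00019; rho 0.48, permutation p = 0.00064; r = 0.45 without those 2) but 0.15 with Lane 3 (permutation p = 0.47), and BCL2L2-PABPN1 had r = 0.47 (permutation p = 0.00068; rho 0.44, permutation p = 0.0015; r = 0.40 without those 2). C15orf38-AP3S2 had the lowest, 0.26 (permutation p = 0.07; rho 0.26, permutation p = 0.076; 0.24 without those 2).

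Even so, the same number gave different shares. For NME1-NME2 the mean absolute difference between Lane 2 and Lane 1 was 5.27 percentage points, while the SD between numbers was 6.90 points in Lane 2 and 7.15 in Lane 1. For ANKHD1-EIF4EBP3, 13 numbers had no model count in either lane, 16 had counts in both, 3 had none in Lane 2 alone and 16 had none in Lane 1 alone. Whether equal numbers stand for the same library is not stated in the sources used here. Over all genes, the counts of same-numbered libraries in Lanes 2, 3 and 4 against Lane 1 differed with a chi-square of 1.04 to 1.2 per degree of freedom, below the 1.34 to 14.6 of different numbers within a lane.

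**Figure D5:**
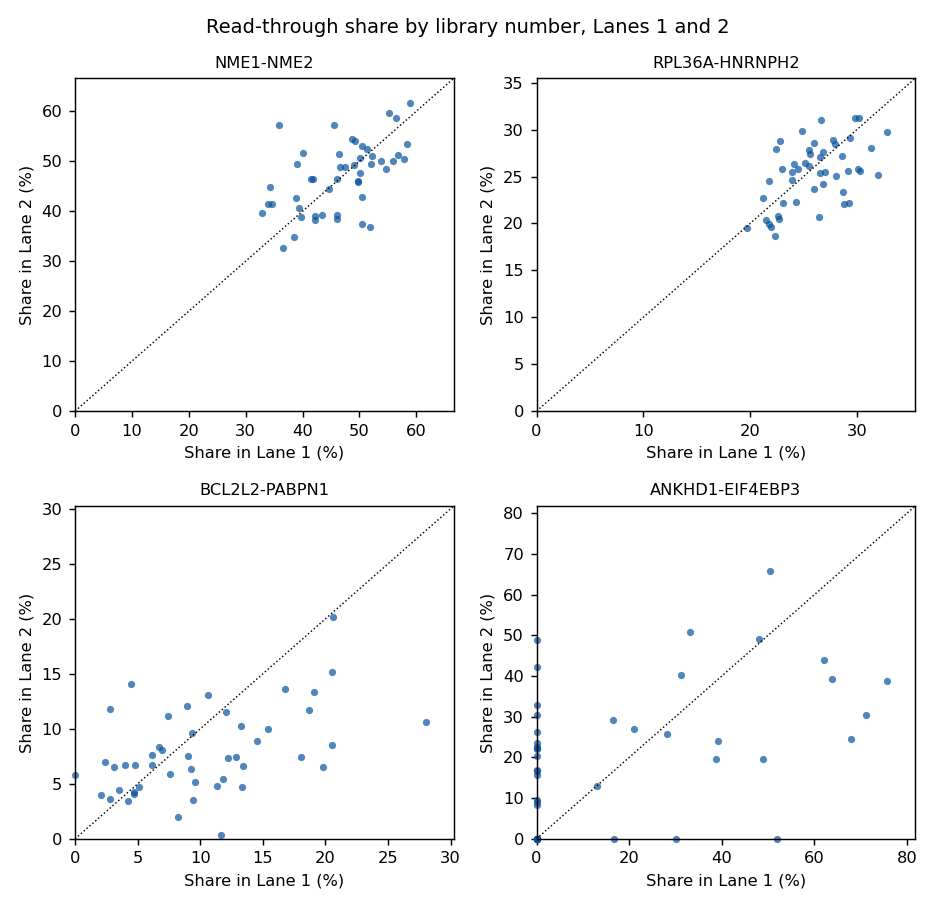
Each point is 1 of 48 library numbers, with the percentage of trio counts given to the read-through model in Lane 2 (vertical) and Lane 1 (horizontal); the dotted line marks equal shares. NME1-NME2, RPL36A-HNRNPH2 and BCL2L2-PABPN1 scatter around the line with r of 0.54, 0.52 and 0.47, and ANKHD1-EIF4EBP3 has many numbers at 0 in Lane 1.

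Genes that end transcription or remove faulty RNA were described beside the models. PABPN1, a partner gene of BCL2L2-PABPN1, is among the termination genes. Of 25 genes of 3' end cleavage and termination, 22 passed in H1p43 against H1p16, 3 higher and 19 lower, with a median log2 fold change of -0.22, against 0.01 over all genes tested. Of all genes, 71.8% passed in that comparison, 36.4% higher and 35.4% lower. CSTF3, a subunit of the cleavage stimulation factor, rose by 1.203 ± 0.04 (adjusted p = 1.1e-14), while FIP1L1, a subunit of the cleavage and polyadenylation factor, fell by -0.61 ± 0.03. Of 16 nonsense-mediated decay genes, all 16 passed, 1 higher and 15 lower, with a median of -0.38. SMG9 fell by -1.05 ± 0.05, RBM8A, a component of the exon junction complex, by -0.64 ± 0.03 and UPF2 by -0.62 ± 0.03.

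In Lane 4 against TruSeq, 18 of the 25 termination genes passed, 11 higher and 7 lower (median 0.08, against -0.06 over all genes), and 11 of the 16 decay genes, 9 higher and 2 lower (median 0.45). Both counts are near the 71.3% of all genes that passed. The 11 higher termination genes include PABPN1, whose reads are divided with the BCL2L2-PABPN1 model. PCF11, a termination factor that binds the polymerase, rose by 1.43 ± 0.06 (adjusted p = 7.4e-12), CPSF2 by 1.07 ± 0.06 and PAPOLG, a poly(A) polymerase, by 0.83 ± 0.06. UPF2 rose by 1.502 ± 0.12, CASC3 by 1.00 ± 0.06 and RBM8A by 0.98 ± 0.13. No gene of either list passed in the 3 lane comparisons, and none had an unadjusted p under 0.05 there. The part of these genes in the models' levels was not tested.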

How the data were processed

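Bowtie 0.12.8, RSEM 1.2.3 and CASAVA 1.8.2 are named, with hg19, in the submitters' processing notes. The authors' deposited tables hold expected counts and TPM for every gene and library; use of strand in counting is not stated there. Members and lists were chosen with earlier results of these data known. Expected counts were rounded and tested in edgeR 4.0.16 (R 4.3.3; quasi-likelihood, filterByExpr, TMM, Benjamini-Hochberg over all genes, threshold 0.05), and trio sums likewise in a table where each trio was 1 row. SE came from the fold change and its F statistic. Alternatives used DESeq2 1.42.0 and limma 3.58.1. Named were the 8 models with the highest TruSeq TPM, up to 8 called models a direction with the largest changes and no overlap, the 8 trios with the largest and 4 with the smallest SD of the share in Lane 1, 8 models from earlier results, their partners, and 3 called genes a list by adjusted p, of which 1 is not reported here. The SDs were ranked only over trios with a mean of at least 100 counts in Lane 1. FAM18B2-CDRT4, TNFAIP8L2-SCNM1, CCDC169-SOHLH2, C8orf44-SGK3, BIVM-ERCC5 and APITD1-CORT were named after their values were seen. Correlations used 100000 permutations (scipy 1.17.1, numpy 2.4.6). Same-numbered libraries deviated together between lanes (correlations with Lane 1 of 0.359 to 0.417 for Lane 4, 0.165 to 0.542 for Lane 3, 0.146 to 0.592 for Lane 2), so blocked values are given; between H1p43 and H1p16 the correlations were -0.267 to 0.011. Libraries of a group differed by more than sampling noise. Reads carry no molecular identifiers that the sources used here name. Sequences are from GENCODE release 29 (GRCh38), not from the files' build. The calling was tested on simulated data.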

Additional observations from a re-analysis of the deposited data

Results flagged for a closer look

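The shares of 26 named trios were checked over the 6 Lane 4 libraries for a library far from the others. Where 5 libraries have no count and 1 has some, the check always flags that library. Both flags below are of this kind, so the usual chance rate of about 1 in 20 does not hold for them. For RPS10-NUDT3, 1 library had a share of 0.696% and the other 5 had no count for the model. For TMEM189-UBE2V1, a different library had a share of 0.879% and the other 5 had no count. The cause was not tested.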

How the results depend on the processing

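For H1p43 against H1p16 the 23 called models became 14 in DESeq2 and 15 in limma on log2(TPM + 1) or log2(TPM + 0.1), 28 with the replicate block, and 21 to 28 when each library was left out. For Lane 4 against TruSeq the count of 26 stayed within 18 to 32 under every alternative run. For Lane 4 against Lane 1 the count of 1 became 0 over all libraries, 0 with thinned counts and 2 with the replicate block; for Lane 3 it was 1 with the replicate block; for Lane 2 it stayed 0. The replicate block changed no other call in the lanes named. The H1p43 and H1p16 numbers share only a number. No paired fit was possible for Lane 4 against TruSeq, whose libraries share no number. The pooled share in Lane 4 minus TruSeq was 4.84 percentage points in TPM, 0.17 without the largest trio and 4.26 over model and left gene, against 1.69; H1p43 minus H1p16 was 0.20 in TPM and 0.77 without that trio, against 0.49. With Lane 3 in place of Lane 2, over 24 numbers, r was no longer past the threshold for ISY1-RAB43 (0.33), NDUFC2-KCTD14 (0.38), PHOSPHO2-KLHL23 (0.17), RPL36A-HNRNPH2 (0.15) and RBM14-RBM4 (0.28). The number of trios without overlap, 15, was 15 to 20. No named model changed direction; in 22 of 339 combinations of model and alternative the call was lost. The causes were not tested. Depth limits the lanes: models at few counts in Lane 1 were at 0 in many libraries.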

Other observations

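Across 50 trios, the absolute difference in share between Lane 4 and TruSeq had a Spearman correlation of -0.29 with the percentage of a model's 50-base windows that lie in neither partner. The SD of the share relative to the binomial SD in Lane 4 had one of -0.21 over 45 trios. Both are descriptions across trios, which share libraries and depth. Both include ARMCX5-GPRASP2 at 0%, whose matched transcript had all its windows in the right gene.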
